A study of Caenorhabditis elegans with 4 samples.

Results

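The right arm of chromosome V of Caenorhabditis elegans was described here through the binding regions that fall on it in a chromatin immunoprecipitation and sequencing (ChIP-seq) experiment labelled NHR-129. Members were all regions of the combined peak list on V whose midpoint lay at or above 16550000 (WormBase WS220 coordinates). They numbered 984 of 11110 regions in all. The arm so defined was 4.37 Mb long and ended at 20916117, the last base covered by any peak on V.

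The study had 4 samples, 2 of ChIP and 2 of Input (total chromatin), from L2 larval hermaphrodites of strain OP339 grown at 20 °C. All 4 carried the unc119(ed3) mutation and the bombarded transgene wgIs339, which holds nhr-129 fused to TY1, EGFP and FLAG tags together with an unc119 rescue copy. The strain is recorded without outcrosses. Fusion protein was seen in seam cells, pharynx and head neurons per the labels, while chromatin came from whole larvae, so other cells contributed to it too. Peak lists were analysed for ChIP replicate 1 (7583 peaks), ChIP replicate 2 (7109 peaks) and 1 combined list; Input samples were not analysed on their own here. Each list gives positions and a q-value per peak but no read counts, so the depth behind a list is unknown. Nothing in the labels says whether the replicates were separate cultures, so their spread may be technical. Peak names in all 3 lists carried GEI-11, another C. elegans protein, and 0 of them carried NHR. The factor is therefore given only as the labels have it.

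Nuclear hormone receptors such as NHR-129 are transcription factors with a zinc-finger DNA-binding domain and, in most members, a ligand-binding domain, and the family is greatly expanded in C. elegans. Arms of C. elegans autosomes differ from centres. Crossovers are frequent on arms, repeats are common, much of the chromatin carries methylated H3K9, and arms lie near the nuclear envelope. Genes with essential and widely conserved functions are rarer there. The arms of V hold large clusters of genes for chemoreceptors, which are membrane proteins of sensory neurons, and of other expanded families. Regions are given by their WS220 position alone, since neither genes nor sequence of that build were used here.

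The comparison asked whether the right arm holds as many regions as the rest of V, and whether these are found again in single samples. The arm made up 20.9% of the span of V. It held 20.9% of the combined regions of V (984 of 4698), but 17.6% of the replicate 1 peaks (641 of 3647) and 16.3% of the replicate 2 peaks (538 of 3306). Of the combined regions of V found in both replicates, it held 13.5% (308 of 2288). By number of combined regions the arm was thus filled in proportion to its length, and by regions found in both samples it was not. With 2 ChIP samples no test over samples can be made, and regions of 1 sample are not replicates. Differences are therefore given as values in each list, and 95% Wilson intervals cover counting error only.

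Density showed the same gap between the lists. The combined list had 225 regions per Mb in the right arm, against 233 in the centre of V (5.9 to 16.55 Mb) and 208 in the left arm. Replicate 1 had 147 peaks per Mb in the right arm, against 198 in the centre and 152 in the left arm. Replicate 2 had 123 per Mb in the right arm, against 176 in the centre and 151 in the left arm. The ratio of right arm to centre was therefore 0.966 in the combined list, 0.741 in replicate 1 and 0.7 in replicate 2. The ratio of right arm to left arm was 1.08 in the combined list but 0.968 and 0.814 in replicates 1 and 2, so its direction turned between lists.

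The right arm of V was denser in all 3 lists than the right arms of the other 5 chromosomes, taken as end stretches with the same share of their chromosome. It had 225 combined regions per Mb, against 74 in those arms pooled, a ratio of 3.04, with 3.49 in replicate 1 and 2.93 in replicate 2. Singly they ranged between 60.2 per Mb on III and 97.3 on IV, and each lay below 225. The order turned among wide regions: at 500 bp or more, the V right arm had 20.4 combined regions per Mb, against 32.4 in the other right arms. Of these wide regions, 97.8% in the V right arm but 69.3% in the other right arms were found in both replicates. Counting only those found in both, the densities were nearer, at 19.9 and 22.4 per Mb. Regions of the combined list covered 50.5 kb per Mb in the V right arm, against 44.6 kb per Mb in the other right arms. On the rest of V they covered 75.6 kb per Mb in the centre and 54.3 kb per Mb in the left arm. The excess of the V right arm was thus in number and much less in covered length.

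**Figure D1:**
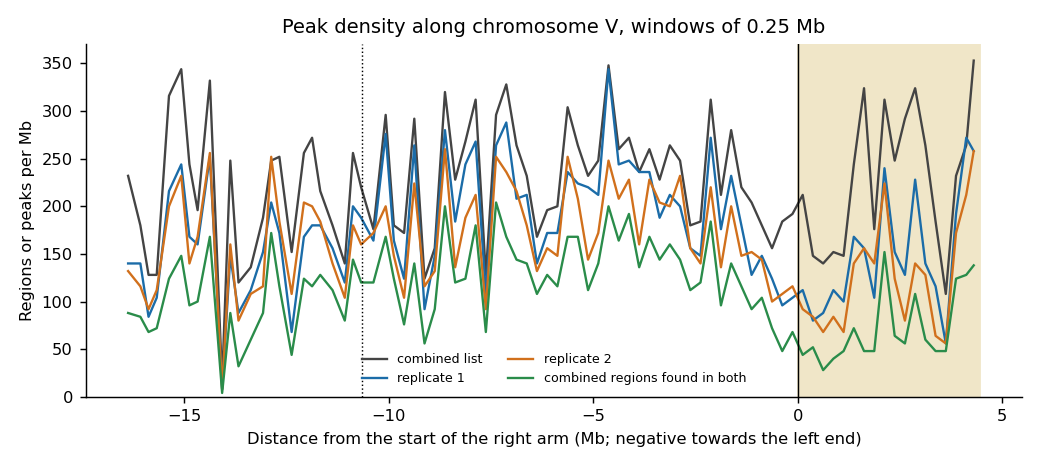
Combined regions, replicate 1 peaks, replicate 2 peaks and combined regions found in both replicates, per Mb (vertical axis) in windows of 0.25 Mb along V, against distance from the start of the right arm (horizontal axis, Mb). The shaded right arm holds 225 combined regions per Mb but 70.5 per Mb found in both; the solid line marks its start and the dotted line the limit between left arm and centre.

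The share of members found in both replicates lay below that of each other stretch compared. Of the 984 members, 308 shared at least 1 bp with a peak in each replicate list. This is 31.3% (interval 28.5 to 34.3%), where all combined regions gave 48.5%. The share was 56.2% (54.3 to 58.2%) in the centre of V, 47.4% (44.6 to 50.2%) in the left arm and 45.1% (42.3 to 47.9%) in the other right arms pooled. The other right arms ranged singly between 37.5% on IV and 53.8% on III. Of the members, 243 were overlapped by replicate 1 only (24.7%, against 14.8% of all combined regions) and 139 by replicate 2 only (14.1%, against 9.75%). The other 294 members were overlapped by neither (29.9%, against 26.9%). In the centre of V that last share was 15.1%, and in the other right arms 36.1%. In the left arm of V, 18.4% of regions were overlapped by replicate 1 only and 15.1% by replicate 2 only. In the centre these shares were 18.9% and 9.74%. Regions supported by 1 replicate alone were thus common along V and not only on its right arm. On the other right arms most regions outside the shared set were found in neither list.

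**Figure D2:**
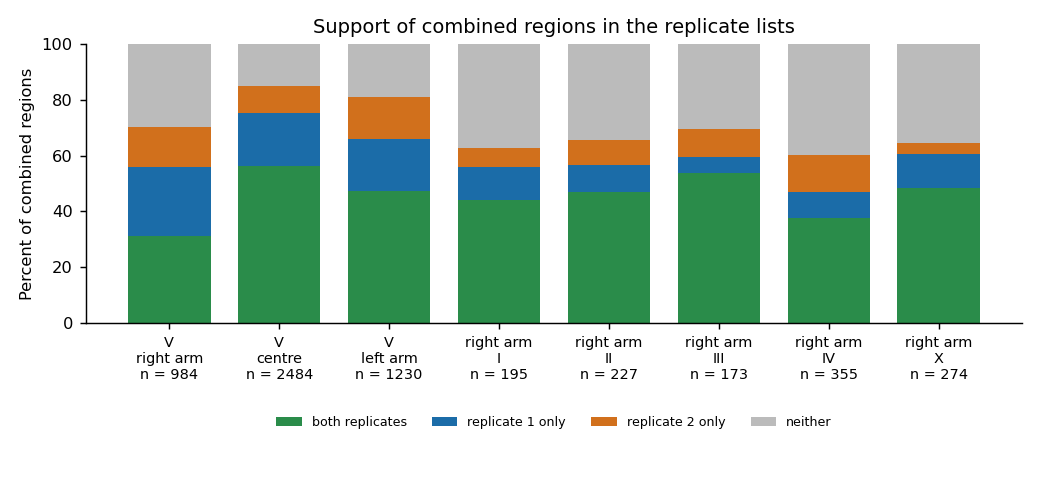
Percent of combined regions (vertical axis) overlapped by peaks of both replicates, of replicate 1 only, of replicate 2 only or of neither, for the V right arm, the V centre, the V left arm and the right arms of I, II, III, IV and X. The V right arm has the shortest segment for both replicates (31.3%), below IV (37.5%), and n is the number of combined regions.

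The replicate lists showed the same without the combined list. In the right arm, 294 of 641 replicate 1 peaks overlapped a replicate 2 peak, or 45.9% (42 to 49.7%), against 67.1% in the centre, 61.9% in the left arm and 81.0% in the other right arms. Over all replicate 1 peaks the share was 71.7%. In the other direction, 298 of 538 replicate 2 peaks overlapped a replicate 1 peak, or 55.4% (51.2 to 59.5%), against 77.0% in the centre, 62.4% in the left arm and 82.2% in the other right arms. Over all replicate 2 peaks it was 77.6%. Shared and unshared peaks of the arm differed in size. Shared replicate 1 peaks had a median width of 313 bp and a median -log10 q-value of 8.39, and unshared ones 83 bp and 3.09. For replicate 2 the medians were 269 bp and 6.79 among shared peaks, and 63 bp and 3.12 among unshared ones.

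Members were narrow. Their median width was 146.5 bp (interquartile range 62.8 to 275 bp), against 230 bp in the centre of V, 190 bp in the left arm and 453.5 bp in the other right arms. The replicate lists gave medians of 160 bp (replicate 1) and 150 bp (replicate 2) in the right arm, against 224 and 221 bp in the centre. Regions under 100 bp made up 37.1% of members (365). The share was 22.5% in the centre, 29.7% in the left arm and 5.23% in the other right arms. At the short end, 72 members were 10 bp or less and 8 were a single base. Regions of 10 bp or less numbered 128 of 2484 in the centre and 79 of 1230 in the left arm. In the other right arms they numbered 15 of 1224, and in the whole combined list 340 of 11110. Very short regions were thus found along V and not only on its right arm. Of those 72 members, 51 were found in neither replicate, 12 in replicate 1 only and 9 in replicate 2 only. Under 50 bp, 70.7% of members were found in neither. That share was 66.6% in the centre, 66.3% in the left arm and 92.7% in the other right arms. At the wide end, 89 members were 500 bp or more (9.04%). The share was 18.7% in the centre, 11.5% in the left arm and 43.7% in the other right arms.

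Members were weaker within their list than the rest of V. The q-value of PeakSeq, the peak caller of the authors, is given here as its negative log10, so that larger values are stronger. Strength is read within a list, and q-values of different lists are set side by side only as values, since the depth of each list is unknown. The median over members was 6.11 in the combined list (interquartile range 4.33 to 9.81), against 12.5 in the centre, 8.44 in the left arm and 5.82 in the other right arms. In replicate 1 the medians were 3.79 in the right arm and 7.58 in the centre, and in replicate 2 they were 3.90 and 7.18. Of the members, 33% fell in the stronger 50% of the combined list. The share was 70.7% in the centre, 53.2% in the left arm and 39.9% in the other right arms. The arm held 8.86% of the combined list but 4.59% of its strongest decile (51 of 1111 regions). It held 3.96% of the strongest decile of replicate 1 peaks and 4.08% of that of replicate 2. Members did not gather at the weakest end of the combined list. The arm held 3.78% of its weakest decile (42 of 1111 regions), and the other right arms held 22.2%. In the replicate lists it was otherwise. The arm held 14.6% of the weakest decile of replicate 1 peaks, against 8.45% of that list. For replicate 2 these shares were 10.4% and 7.57%.

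**Figure D3:**
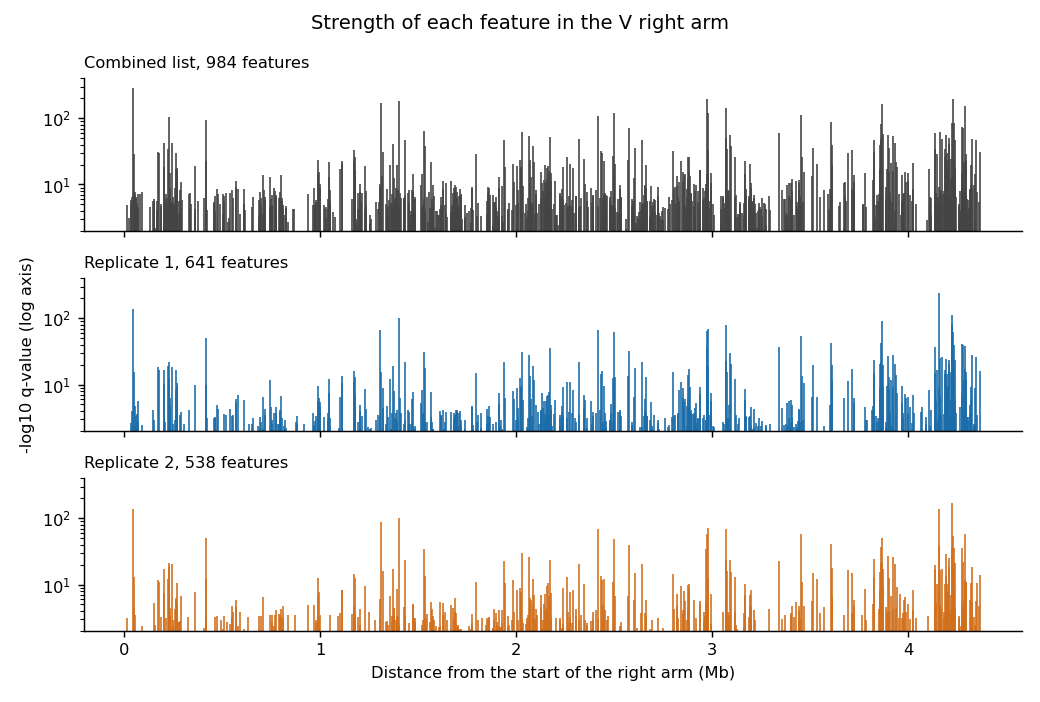
The -log10 q-value of every feature in the V right arm (vertical log axis), against distance from the start of the arm (horizontal axis, Mb), in the combined list (984), replicate 1 (641) and replicate 2 (538). Tall lines of leading members recur along the arm in all 3 panels, but the tallest line of replicate 1 (7.54e-239) and of replicate 2 (7.87e-170), both in the last 0.25 Mb, have no combined region.

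Support depended on width and strength in every stretch, so it was also read within classes. None of the 365 members under 100 bp was found in both replicates, which was nearly so elsewhere on V: 1 of 559 such regions in the centre and 2 of 365 in the left arm. Between 100 and 200 bp, 14.0% of members were found in both (38 of 272), against 21.3% in the centre and 21.8% in the left arm. Between 200 and 500 bp the share was 70.9% of members (183 of 258, interval 65.1 to 76.1%), against 88.5% in the centre (86.3 to 90.4%) and 86.3% in the left arm. At 500 bp or more it was 97.8% of members (87 of 89), against 98.9% in the centre and 99.3% in the left arm. From 100 to 500 bp the shares of members thus lay below those of the centre at the same width, and above 500 bp they were close. The other right arms had lower shares at the same widths, with 33.4% between 200 and 500 bp and 69.3% at 500 bp or more.

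Within classes of q-value the order was another. At a -log10 q-value from 5 to 10, 21.6% of members were found in both replicates (86 of 398), against 11.1% in the centre, 20.5% in the left arm and 49.6% in the other right arms. From 10 to 20 the share was 85.6% of members (101 of 118), against 71.1% in the centre, 81.5% in the left arm and 97.8% in the other right arms. At 20 and above, 119 of 120 members were found in both. Below 5, where 348 members lay against 163 regions of the longer centre, only 2 members were. Regions elsewhere were then weighted to the joint width and q-value classes of the members. In the classes that could be used, members had a share of 31.4%, against a weighted 31.9% in the centre and 34.7% in the left arm. For the other right arms, whose classes covered 89.5% of the members, these members had 34.8%, against a weighted 37.5%. With width alone matched, the weighted shares were 38.1% in the centre and 16.2% in the other right arms, and with q-value alone they were 25.1% and 44.4%, against 31.3% for all members. The share in the centre thus lay above that of members at matched width and below it at matched q-value. With both matched the shares were close, where the unweighted ones were 31.3% for members and 56.2% for the centre. Combined and replicate lists come from the same 2 ChIP samples. Support was also nearly fixed in many classes. It was 98.6 to 100% in every stretch for -log10 q-values from 20 to 40. Below 5, where 348 members lay, it was 1.12% or less in every stretch. Under 100 bp, with 365 members, it was 1.18% or less. Closeness after matching was thus in large part built in, and the cause of the lower share was not tested.

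**Figure D4:**
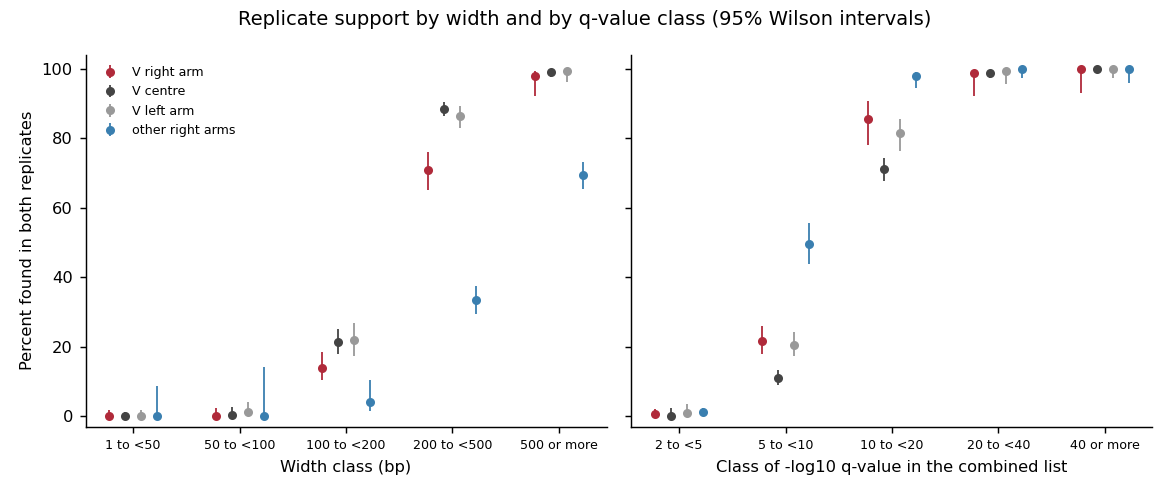
Percent of combined regions found in both replicates (vertical axis, 95% Wilson intervals) by width class (left) and by class of -log10 q-value in the combined list (right), for the V right arm, the V centre, the V left arm and the other right arms pooled. Members lie below the centre between 200 and 500 bp (70.9% and 88.5%) but above it at -log10 q-values from 5 to 10 (21.6% and 11.1%).

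The 308 members found in both replicates resembled those of the left arm in width. Their median was 351 bp, against 378 bp in the centre, 351 bp in the left arm and 602 bp in the other right arms. Their density was 70.5 per Mb, against 131 in the centre, 98.8 in the left arm and 33.4 in the other right arms. In 279 of the 308, the region held 1 peak of each replicate. First bases of these paired peaks lay a median of 44 bp apart and last bases 43 bp apart, while 29 pairs touched the same region without sharing a base with each other. Combined regions were mostly wider than their peaks: 252 of the 279 were wider than both. Paired peaks were compared in the arm alone, so these counts describe it without setting it apart. Over the 308 regions the -log10 q-values of the replicates gave a Spearman's rho of 0.813, a description over regions of the same 2 samples.

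**Figure D5:**
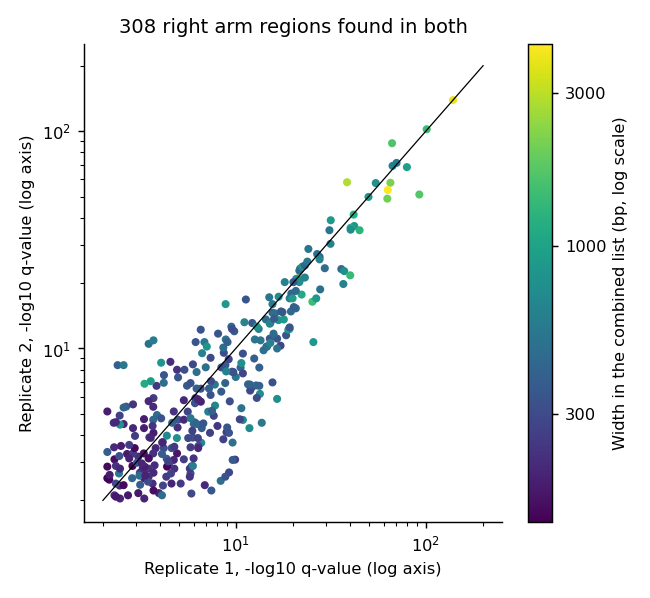
The -log10 q-value of the strongest overlapping peak in replicate 1 (horizontal log axis) and replicate 2 (vertical log axis) for the 308 right arm regions found in both, coloured by width in the combined list. The line marks equal values, which need not mean equal binding. Regions high in replicate 1 are mostly high in replicate 2 (Spearman's rho 0.813), and wide regions gather at the strong end.

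The leading member was a broad region near the inner edge of the arm. V 16591854 to 16595719 was 3866 bp wide, with a q-value of 1.45e-290 in the combined list (rank 5 of all regions), 3.65e-140 in replicate 1 (rank 41) and 3.67e-140 in replicate 2 (rank 27). V 17950942 to 17952360 (1419 bp) followed, with 2.34e-183 in the combined list, 3.87e-102 in replicate 1 and 2.14e-102 in replicate 2. V 17857744 to 17859385 (1642 bp) came next, with 1.28e-169 in the combined list, 3.91e-67 in replicate 1 and 1.03e-88 in replicate 2. The first of these ranked high in both samples, and the third ranked 209 in replicate 1 and 103 in replicate 2.

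These 3 led the 10 members chosen by mean rank over both replicates, and the rest of the 10 all lay in the outer part of the arm, beyond its midpoint. V 19622204 to 19623142 (939 bp) had a q-value of 2.61e-145 in the combined list, and V 19529049 to 19529595 (547 bp) had 1.33e-120. V 18967371 to 18967985 (615 bp) had 2.42e-110, with ranks of 205 in replicate 1 and 163 in replicate 2. V 20414052 to 20415744 ranked 120 in replicate 1 (q-value 4.19e-93) and 267 in replicate 2 (7.77e-52). The remaining ones were V 19520951 to 19523127 (1.35e-195 in the combined list), V 20776878 to 20781130 (3.70e-195) and V 19049186 to 19051216 (1.26e-121). Within these 10, replicate 1 ranks ran from 41 to 228 and replicate 2 ranks from 27 to 280.

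Several wide members joined peaks that the replicate lists kept apart. The widest, V 20776878 to 20781130 (4253 bp), held 3 peaks in each replicate, as did V 20840806 to 20843630 (2825 bp) and V 16778396 to 16780988 (2593 bp). V 19520951 to 19523127 (2177 bp) held 2 in each. In contrast, the leading member, 3866 bp wide, was 1 peak in each replicate. In all, 29 of the 308 members held 2 or more peaks of either replicate, and these were 842 bp wide in the median, where members with 1 peak of each had 336 bp. Joined peaks were not counted in other stretches, so joining is not given as a trait of the arm.

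Loci near the end of the arm were strong in both replicates and had no combined region. Replicate peaks merged within 200 bp made 317 loci shared by both replicates in the right arm, of which 3 were absent from the combined list (19 of 1452 in the centre, 1 of 594 in the left arm, 2 of 561 in the other right arms and 30 of 5500 over all chromosomes). V 20705528 to 20708803 (3276 bp) had a q-value of 7.54e-239 in replicate 1, rank 8 of that list, and 1.12e-138 in replicate 2, rank 29. V 20771927 to 20774649 (2723 bp) had 1.62e-114 in replicate 1, rank 70, and 7.87e-170 in replicate 2, rank 16. The third, V 20709015 to 20709520, was weaker, with 7.85e-10 in replicate 1 and 0.00122 in replicate 2. The strongest replicate peaks of the arm are therefore not among the 984 members. All 3 loci lay within 503 bp of a combined region. Of single peaks in the arm, 69 of replicate 1 and 69 of replicate 2 overlapped no combined region. A combined region was thus present at 89.2% of replicate 1 peaks of the arm. The share was 92.7% in the centre, 92.5% in the left arm, 99% in the other right arms and 95.8% over all chromosomes. For replicate 2 it was 87.2% in the arm and 89.2% in the left arm. It was 93.4% in the centre, 98% in the other right arms and 95.3% over all chromosomes.

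Density and support varied along the arm. The change at the inner limit was gradual. The first 1 Mb of the arm held 163 combined regions, 98 replicate 1 peaks and 82 replicate 2 peaks, against 178, 118 and 117 in the last 1 Mb of the centre. The share found in both was 25.2% in the first 1 Mb of the arm and 41% in the 1 Mb before it. In windows of 0.25 Mb the combined density within the arm ran between 108 and 353 per Mb (the highest in the end window of 0.116 Mb). The lowest window, from 20.05 to 20.30 Mb, was also the lowest in both replicates, at 56 peaks per Mb each. Beyond 20.05 Mb, a limit chosen after the windows had been seen, the remaining 0.87 Mb of the arm had 222 combined regions per Mb, and the 3.5 Mb before it 226. Numbers per Mb were thus alike, but support was not. The share found in both replicates was 47.4% in the outer stretch (91 of 192, interval 40.5 to 54.4%) and 27.4% before it (217 of 792, interval 24.4 to 30.6%). These 2 intervals make no allowance for a limit chosen after the windows had been seen, so they do not establish a boundary there. Replicate 1 had 185 peaks per Mb in the outer stretch and 137 before it, and replicate 2 had 162 and 114. Median width was 199.5 bp in the outer stretch and 141 bp before it. High support was not limited to the outer stretch: the window from 18.55 to 18.80 Mb had 48.7% of its members in both (38 of 78) and, at 152 per Mb, the highest density of such members in any window of the arm. Replicate 1 had 240 peaks per Mb there and replicate 2 had 224. The outer stretch, 19.8% of the arm's length, held 25 of the 51 members that ranked in the strongest decile of the combined list.

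Regions were unevenly spaced within the arm. Gaps between neighbouring members had a median of 2004 bp (interquartile range 842 to 4883.5 bp), against 1504 bp in the centre and 1898 bp in the left arm. The shortest gap was 202 bp in the arm and 200 bp in both the centre and the left arm, so this lower limit was not particular to the arm. Members found in both replicates lay further apart, with a median gap of 4972 bp, against 2844 bp in the centre. The longest gap between members ran from V 17416986 to 17489581 (72596 bp), and 4 replicate 1 peaks and 2 replicate 2 peaks lay in it. The densest 50 kb, V 18217000 to 18266999, held 36 members, but only 4 of these were found in both replicates. It held 14 replicate 1 peaks and 16 replicate 2 peaks. Over 87 consecutive windows of 50 kb, members numbered between 1 and 29 per window with a median of 11. Counts of the replicates in these windows gave a Pearson's r of 0.847 and a Spearman's rho of 0.798. This is a description over neighbouring windows, which share both samples and whatever uneven coverage both have.

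Members without support were near known peaks only in part. Of the 294 found in neither replicate, 13 lay within 200 bp of a replicate peak and 123 (41.8%) within 1000 bp. Of the 243 found in replicate 1 only, 56 lay within 1000 bp of a replicate 2 peak, and of the 139 found in replicate 2 only, 41 lay within 1000 bp of a replicate 1 peak. Such distances were taken for the arm alone, so whether they differ from those of other stretches is not known. Members found in neither were mostly very narrow, with a median of 49 bp, against 34 bp in the centre and 317 bp in the other right arms. The strongest members of each incomplete class were named after their values had been seen. V 17594474 to 17595060 (587 bp) was found in replicate 1 only, with a combined q-value of 2.42e-22 and 1.14e-12 in replicate 1. V 20551361 to 20551746 (386 bp) was found in replicate 2 only, with 1.73e-15 in the combined list. V 17864636 to 17865117 (482 bp) was found in neither, with 4.67e-14. Only 2 members of 500 bp or more were not found in both: V 17594474 to 17595060 and V 17294523 to 17295110, each in replicate 1 alone.

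Regions on both sides of the limit are given as a description. Just inside it lay V 16563594 to 16563658 (65 bp, combined q-value 1.32e-05, in neither replicate), V 16573491 to 16573541 (51 bp, 8.51e-04, in neither) and V 16583196 to 16583341 (146 bp, 1.27e-06, in replicate 1 only). Just outside it lay V 16543835 to 16543960 (126 bp, 2.32e-09, in replicate 1 only), V 16537817 to 16538572 (756 bp, 2.98e-46, in both) and V 16534212 to 16534300 (89 bp, 1.52e-05, in neither). The last member, V 20915755 to 20916117 (363 bp), was found in both, with q-values of 1.06e-31 in the combined list, 1.14e-16 in replicate 1 and 1.81e-14 in replicate 2.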

How the data were processed

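Larvae were fixed with 2% formaldehyde, and sonicated chromatin was precipitated with anti-GFP antibodies, with a share saved as Input, per the labels' protocols. Per the file headers and columns, PeakSeq called the peaks and coordinates are WormBase WS220. The authors deposited a q-value for each peak, all below 0.01. Not given in the sources used here are the aligner, the PeakSeq settings, the control reads and how the combined list was made. A liftover message at 1 disabled peak shows that the replicate 2 list had been moved between builds.

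Samples were grouped by title. Members, lists and comparisons were chosen with earlier results of these data known. Features were placed by midpoint, and counted as found in a replicate at an overlap of at least 1 bp. Chromosome spans ended at the last base of any peak. Weighted shares apply the shares of a stretch, by class, to the members' class counts (5 classes of width and 5 of q-value, joint classes with at least 5 regions in that stretch). Regions were named by rule: 10 by mean rank in both replicates, the 5 widest, shared loci absent from the combined list, and those at the limits. Overlap, merging and density counts were tested on simulated lists. Python 3.11.15, NumPy 2.4.6, pandas 2.3.3, SciPy 1.17.1 and Matplotlib 3.10.9 were used. Alternatives covered the list, q-value limit, width, merging, overlap rule and arm limits. Depth is unknown, and so is the detection limit of each list.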

Additional observations from a re-analysis of the deposited data

How the results depend on the processing

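The right arm of IV was left out of the other right arms after the data had been examined; all other alternatives were planned. The ratio of V right arm to V centre, 0.966, depended on weak and narrow regions. It was 0.538 for regions found in both replicates, 0.452 for the strongest 50% of the list, 0.468 at 500 bp or more and 0.784 at 100 bp or more. It was 1.09 with regions merged within 1000 bp, 0.936 without 0.5 Mb at the end, and 1 or 0.936 with arms 0.5 Mb shorter or longer. In the lists of single replicates it ran from 0.7 to 0.741. The ratio to the V left arm, 1.08, turned to 0.714 (both replicates), 0.672 (strongest 50%), 0.847 (500 bp or more), 0.967 (100 bp or more) and 0.814 to 0.968 (single replicates). The ratio to the other right arms, 3.04, was 2.11 (both replicates), 2.52 (strongest 50%), 2.02 (100 bp or more), 2.58 (merged) and 2.93 to 3.49 (single replicates), and turned to 0.630 at 500 bp or more. Without IV it was 3.34, and with arms cut at whole-Mb recombination limits 2.68.

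The share of members found in both replicates, 31.3%, was 24.7% with centres within 100 bp, 80.0% in the strongest 50% and 49.8% at 100 bp or more. For replicate 1 peaks (45.9%) the same settings gave 40.4%, 91.4% and 65.0%, and for replicate 2 peaks (55.4%) 48.1%, 95.1% and 76.3%. Median width, 146.5 bp, was 351 bp for members found in both, 360 bp in the strongest 50%, 191 bp when merged and 150 to 160 bp in single replicates. The median -log10 q-value, 6.11, was 15.2 for members found in both, 35.2 at 500 bp or more, and 3.79 to 3.90 in single replicates. The count of absent loci was 3 under both other merging rules, but with merging within 1000 bp not for the same set. V 20705528 to 20708803 and V 20709015 to 20709520 lay less than 1000 bp apart. Merging within 1000 bp joins them, so the 3 loci counted there are not those named above. The causes of these moves were not tested. No paired analysis was possible because the lists hold no separate values for Input, although the replicate numbers are shared by ChIP and Input samples. A region missing from a list may have been under its unknown detection limit.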
